A study of Mus musculus with 12 samples.

Results

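The 36 genes described here are neuronal and neuroblast genes, chosen by name as markers of neurons that may remain in astrocyte cultures, out of 55573 genes in the count table. All 36 had at least 1 count over the 12 libraries, and 27 had enough counts to be tested between groups. Gene expression was measured by RNA sequencing of polyA RNA from forebrain cultures of newborn C57BL6/J mice (postnatal days 0 to 2), grown in a medium with horse serum. All cultures were shaken at day 7 in vitro to detach other glia and replated, which enriches for astrocytes and need not remove every neuron or progenitor. All then carried a lentivirus for 5 days, either pCIG3, the control virus, which expresses GFP from a CMV promoter, or a virus for ACREB, a dominant-negative protein that binds CREB and keeps it off DNA. PBS or vasoactive intestinal peptide (VIP, 0.5 µM) was then applied for 30 min, and cells were lysed 90 min later. The 4 groups were control virus with PBS, control virus with VIP, ACREB with PBS and ACREB with VIP, each with 3 libraries numbered 1 to 3. The labels do not say how many animals stand behind a culture or whether the libraries come from separate cultures, so the p-values reflect the spread among these libraries alone, and that spread may be technical.

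Neurons are recognised at the RNA level by genes that are switched on in turn as they mature. Migrating neuroblasts carry the transcription factors Sox4 and Sox11 and the microtubule protein doublecortin (Dcx). Growing neurites need tubulins, stathmins and neurofilaments, mature neurons add the splicing factor NeuN (Rbfox3) and the synaptic machinery, and transmitter type is read from lineage factors and vesicular transporters. VIP raises cAMP in cells that carry its receptors, and cAMP activates CREB, which ACREB blocks.

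CREB binds the cAMP response element, in full TGACGTCA and in its shorter form TGACG, so the promoters of the neuronal genes were searched for both forms on either strand. Of the 36 genes, 26 had an entry in the RefSeq promoter table (build GRCm38.p6), with 34 start sites. The 250 bases before the start held TGACG in 7 genes and 9 windows, 26.5% of the windows, against 17.8% of the 32851 windows of all genes. By gene it was 7 of 26, against 5347 of 27025 over all genes. The Elavl4 windows chr4:110287512-110287761 and chr4:110287528-110287777 overlap and hold the same match, which was counted in both. The full element was found in Syn1 alone among the neuronal genes, 2.94% of their windows against 1.55% of all windows. A full element also counts as 2 overlapping short ones, one per strand. Of the 5 tested genes with a match, Dlx6os1 (match at -120) is not shown. Shown here are 4 of these windows, 1 for each of the other tested genes with a match, with matches in capitals (CGTCA is TGACG on the other strand). They are Syn1 (synapsin I, chrX:20920919-20921168), Grin1 (an NMDA receptor subunit, chr2:25319188-25319437), Dlx2 (an interneuron lineage factor, chr2:71546755-71547004) and the outermost of the Elavl4 windows (an RNA-binding protein, chr4:110351912-110352161). All 4 lie on the minus strand and are written 5′ to 3′ toward the start.
Syn1: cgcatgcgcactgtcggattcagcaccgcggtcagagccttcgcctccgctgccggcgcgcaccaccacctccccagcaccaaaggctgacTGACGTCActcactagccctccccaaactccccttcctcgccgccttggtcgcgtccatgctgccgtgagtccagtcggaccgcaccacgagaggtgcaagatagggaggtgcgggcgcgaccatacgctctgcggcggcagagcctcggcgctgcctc
Grin1: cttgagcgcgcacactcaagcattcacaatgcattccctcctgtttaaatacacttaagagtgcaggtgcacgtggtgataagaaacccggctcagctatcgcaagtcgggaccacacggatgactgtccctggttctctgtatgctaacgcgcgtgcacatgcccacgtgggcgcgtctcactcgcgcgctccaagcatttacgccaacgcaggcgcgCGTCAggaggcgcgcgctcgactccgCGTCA
Dlx2: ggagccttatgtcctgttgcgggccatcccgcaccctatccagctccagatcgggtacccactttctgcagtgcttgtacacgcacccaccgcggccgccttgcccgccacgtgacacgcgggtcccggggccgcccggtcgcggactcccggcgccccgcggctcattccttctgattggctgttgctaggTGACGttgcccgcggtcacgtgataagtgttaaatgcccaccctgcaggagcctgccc
Elavl4: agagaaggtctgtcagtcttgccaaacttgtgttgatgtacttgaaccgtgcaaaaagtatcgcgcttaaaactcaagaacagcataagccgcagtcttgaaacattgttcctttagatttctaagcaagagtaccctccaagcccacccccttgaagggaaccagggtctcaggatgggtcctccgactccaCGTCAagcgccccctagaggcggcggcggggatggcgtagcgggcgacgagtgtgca
Relative to the start, the match in Dlx2 begins at -58, that in Elavl4 at -57, those in Grin1 at -31 and -5, and the full element in Syn1 at -159. A match is a run of letters and not a site of binding, and the levels of these 4 genes under VIP and ACREB are given with the comparisons.

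The libraries held 16571398 to 20529238 counts each, and expression is given as CPM, the usual depth-scaled count, with library sizes adjusted by TMM. At this depth 1 count is worth 0.0542 CPM on average. The cultures carried their labelled cell type: all 12 astrocyte markers were measured, with Gfap at 1051 to 1565 and Slc1a3 at 1817 to 2415 CPM. Summed over each marker list, astrocytes reached 6938 to 8163 CPM, microglia 1117 to 2920, fibroblasts and mural cells 1889 to 3033, the oligodendrocyte lineage 1163 to 1875, ependyma 334 to 519 and endothelium 21.7 to 57.7, with the endothelial gene Cldn5 at 0 in every library. In control PBS library 2, a trend with GC content and length over all genes accounted for 42.6% of its departures from each gene's mean over the 12 libraries (share of variance). The share was 18.6% in ACREB PBS library 2 and 0.502% to 15.8% in the other 10. The fold changes of named genes that rest on control PBS library 2 are therefore given also without it, in fits with no block. Exons of Sox4, Map2, Ina, Nefl, Nefm, Syn1, Syn2, Grin1, Dlx1, Dlx6os1, Sp9, Slc32a1, Neurod1 and Reln overlap those of a gene on the opposite strand, and since the strand setting of the counting is not given in the sources used here, their values are uncertain to that extent. In RNA from whole cultures, fewer neurons and less neuronal RNA per cell cannot be told apart.

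The 36 genes summed to 1291 to 1459 CPM per library, and 64.2% of that came from Sox4, Map2 and Cd24a. The groups gave 1361 ± 75.7 CPM for control PBS, 1432 ± 36.8 for control VIP, 1355 ± 48.2 for ACREB PBS and 1400 ± 30.7 for ACREB VIP (SD, n = 3). The lowest sum was that of control PBS library 2 and the highest that of control VIP library 2. Without control PBS library 2 that group held sums of 1441 and 1352 CPM. All control VIP libraries (1390.2 to 1459 CPM) lay above all ACREB PBS libraries (1299.8 to 1387), and every other pair of groups overlapped. The 5 roles differed far more than the groups did. The 8 identity genes and the 9 cytoskeletal genes held most of the signal, and 6 of the 7 genes of the glutamatergic lineage had at most 8 counts in any library.

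**Figure D1:**
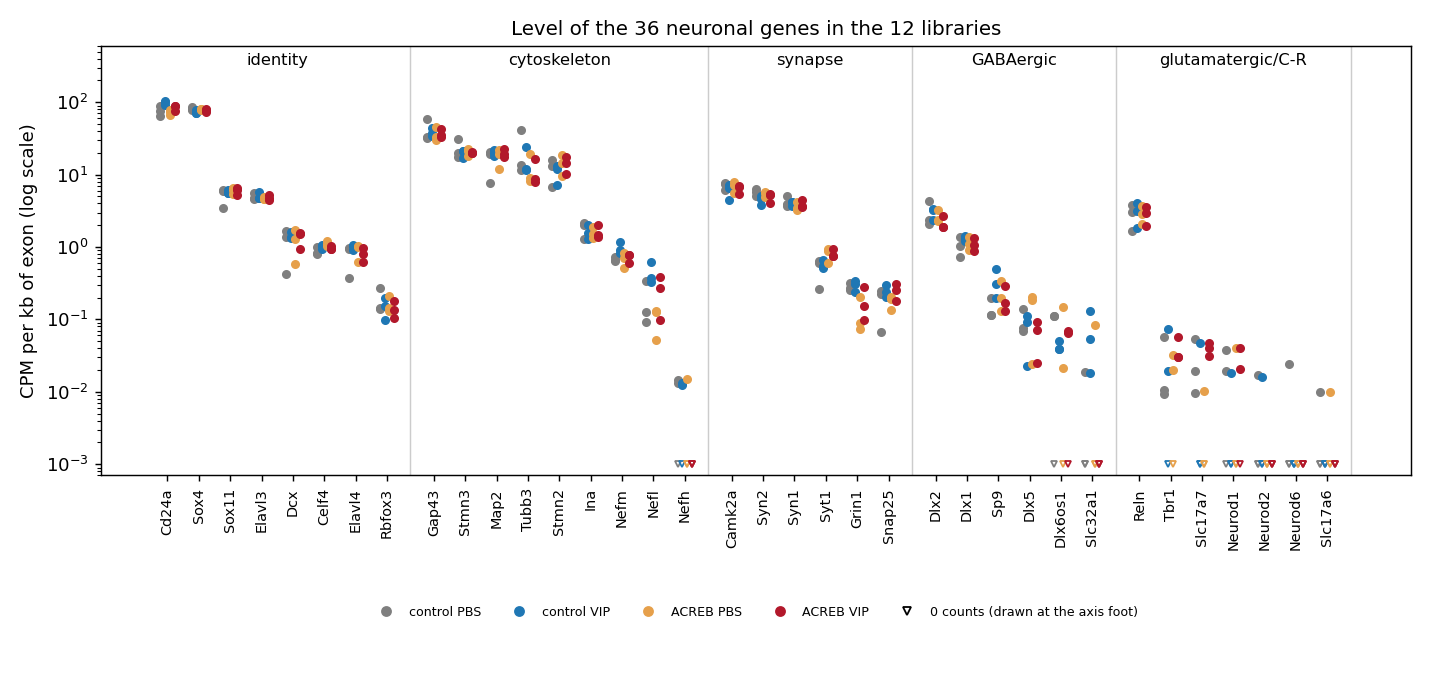
CPM per kb of exon (log axis) for the 36 genes in the 12 libraries, ordered by level within each role (C-R, Cajal-Retzius), 1 point per library coloured by group, with open triangles for libraries with 0 counts. The levels run from above 80 CPM per kb for Cd24a to genes with 0 counts in most libraries, such as Neurod2 and Neurod6, and for most genes the 4 colours overlap.

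Among the identity genes, Cd24a and Sox4 far exceeded the other 6, Dcx included, and which cells carried their RNA was not tested. Per kb of exon, Cd24a, a surface protein of neuroblasts and ependyma, stood at 83.0 CPM and Sox4 at 78.1, followed by Sox11 at 5.72 and the RNA-binding protein gene Elavl3 at 4.90. Dcx stood at 1.28 CPM per kb, Celf4 at 0.994, Elavl4 at 0.862 and Rbfox3 at 0.159, the lowest of the 8.

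Rbfox3 (ENSMUSG00000025576, chromosome 11, 118489762 to 118911597, GRCm38) had 11 to 30 counts per library. In libraries 1 to 3 it measured 0.831, 0.805 and 1.59 CPM in control PBS, 0.563, 0.899 and 1.16 in control VIP, 0.764, 0.847 and 1.23 in ACREB PBS and 0.786, 0.600 and 1.03 in ACREB VIP. The third library was the highest of its group in all 4 groups, and the groups overlapped. Dcx (ENSMUSG00000031285, chromosome X, 143855842 to 143933311) measured 17.7, 5.35 and 20.8 CPM in control PBS, 17.3, 16.7 and 20.4 in control VIP, 16.3, 7.38 and 21.8 in ACREB PBS and 19.3, 11.9 and 19.9 in ACREB VIP. Here the second library was the lowest of each group, down to 5.35 CPM in control PBS, and the groups again overlapped. Control PBS averaged 14.6 ± 8.17 CPM for Dcx with its 3 libraries and 19.2 ± 2.22 CPM without library 2 (SD, n = 2).

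Sox4 was the steadiest abundant gene, at 412, 389.6 and 373 CPM in control PBS, 344, 346 and 379 in control VIP, 385, 382 and 373 in ACREB PBS and 357, 372 and 382 in ACREB VIP. Its highest value was in control PBS library 1 and its lowest in control VIP library 1, and the groups overlapped. Sox11, which acts with Sox4 in new neurons, measured 50.3, 28.7 and 49.2 CPM in control PBS, 51.5, 46.7 and 46.5 in control VIP, 51.8, 44.2 and 53.8 in ACREB PBS and 53.5, 42.9 and 51.5 in ACREB VIP. Apart from control PBS library 2 all its libraries lay between 42.9 and 53.8 CPM. Elavl3 (31.1 to 39.4 CPM), Elavl4 (2.01 to 5.78) and the splicing regulator Celf4 (6.84 to 10.2) were detected in every library.

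Among the 9 cytoskeletal and growth genes, the growth cone protein gene Gap43 led per kb at 38.2 CPM, followed by the stathmin Stmn3 at 20.8, the dendritic protein Map2 at 18.4, the neuronal tubulin Tubb3 at 15.3 and Stmn2 at 12.8. Gap43 measured 50.7, 89.3 and 48.8 CPM in control PBS, 51.4, 68.2 and 57.5 in control VIP, 50.1, 69.7 and 45.5 in ACREB PBS and 49.8, 64.5 and 53.2 in ACREB VIP. Stmn3 measured 22.6, 35.2 and 19.8 CPM in control PBS, 19.5, 24.4 and 24.2 in control VIP, 20.5, 25.8 and 23.9 in ACREB PBS and 22.4, 22.8 and 23.0 in ACREB VIP. For both genes the highest value of all was in control PBS library 2, and for Gap43 the second library led every group.

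Map2 went the other way, at 342, 127 and 322 CPM in control PBS, 363, 331 and 296 in control VIP, 316, 195 and 355 in ACREB PBS and 376, 288 and 313 in ACREB VIP. Its 2 lowest values were the second libraries of the PBS groups, and without control PBS library 2 that group moved from 264 ± 119 to 332 ± 14.2 CPM. The neurofilament genes followed in steps per kb: the internexin Ina at 1.66 CPM, Nefm at 0.760, Nefl at 0.245 and the heavy chain Nefh at 0.00571. Nefh, typical of mature large axons, had 5 counts in all, 0 or 1 per library, which does not tell its level from 0 (a count of 0 allows up to 3 counts, on average 0.163 CPM).

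The 6 synaptic genes were all tested, and Camk2a, Syn2 and Syn1 led per kb at 6.61, 5.13 and 3.97 CPM, ahead of the calcium sensor Syt1 at 0.674, Grin1 at 0.219 and the SNARE protein Snap25 at 0.214. Camk2a, a kinase of the postsynapse, measured 55.6, 46.1 and 57.7 CPM in control PBS, 49.1, 33.8 and 53.0 in control VIP, 58.4, 41.4 and 53.6 in ACREB PBS and 50.8, 40.2 and 52.1 in ACREB VIP. The second library was the lowest in each group. Syn1, a vesicle protein gene with the full element in its promoter, measured 12.3, 16.7 and 13.2 CPM in control PBS, 12.02, 13.7 and 13.7 in control VIP, 10.9, 14.03 and 11.5 in ACREB PBS and 11.8, 14.8 and 12.4 in ACREB VIP. All 4 groups overlapped for both genes. Snap25 stayed between 0.460 and 2.07 CPM, with 8 to 41 counts per library.

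Of the 6 genes of the GABAergic lineage, the homeobox genes Dlx2 and Dlx1, neighbours on chromosome 2 with 9427 bases between them, led per kb at 2.68 and 1.15 CPM. Dlx2 measured 5.92, 12.5 and 6.85 CPM in control PBS, 9.67, 9.24 and 6.70 in control VIP, 6.49, 9.31 and 6.79 in ACREB PBS and 5.33, 7.69 and 5.33 in ACREB VIP. Dlx1 measured 3.95, 7.47 and 5.52 CPM in control PBS, 7.06, 7.70 and 6.49 in control VIP, 4.85, 7.44 and 5.91 in ACREB PBS and 4.83, 7.20 and 5.79 in ACREB VIP. For both genes the groups overlapped, and for Dlx1 the 4 second libraries were the 4 highest of the 12. Sp9, a zinc finger factor of interneurons, followed at 0.222 CPM per kb. Dlx5 had 1 to 8 counts per library, the noncoding RNA gene Dlx6os1 had counts in 9 of 12 libraries, and Slc32a1, the vesicular transporter that loads GABA, had 16 counts in 5 libraries, 7 of them in control VIP library 3.

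Reln, which encodes the signalling protein of Cajal-Retzius cells and some interneurons, was the only abundant gene of the last role, at 2.89 CPM per kb. It measured 72.0, 89.4 and 39.3 CPM in control PBS, 75.4, 95.8 and 43.0 in control VIP, 68.0, 87.7 and 49.0 in ACREB PBS and 71.1, 84.7 and 46.8 in ACREB VIP. The third libraries were the 4 lowest and the second libraries the 4 highest, with no overlap between numbers and full overlap between groups. Tbr1, a factor of deep-layer and Cajal-Retzius neurons, came next per kb at 0.0284 CPM. Its counts were 1, 1 and 6 in control PBS, 8, 0 and 2 in control VIP, 2, 0 and 3 in ACREB PBS and 3, 3 and 6 in ACREB VIP.

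The vesicular glutamate transporter Slc17a7 had 1, 5 and 2 counts in control PBS, 5, 0 and 0 in control VIP, 1, 0 and 0 in ACREB PBS and 3, 4 and 5 in ACREB VIP. Another such transporter, Slc17a6, had 2 counts in all, and of the basic helix-loop-helix genes of glutamatergic neurons Neurod1 had 9, Neurod2 had 2 and Neurod6 had 1. These genes, with Tbr1, Nefh, Dlx5 and Slc32a1, make up the 9 that were too low to test.

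The first comparison asked whether the neuronal genes responded to VIP in cultures with the control virus. None of the 27 tested genes passed: 0 were higher and 0 lower by the quasi-likelihood test of edgeR, adjusted by Benjamini-Hochberg over 16761 genes. Of all genes 0.489% passed, 0.424% higher and 0.0656% lower. DESeq2 also called 0 of the 27, beside 178 higher and 67 lower among 30838 genes. Neither fit had a term for the replicate number. With that number as a block in edgeR 1 of the 27 passed (Cd24a, below), beside 1.63% of all genes. Without the block, at an unadjusted p under 0.05 in edgeR, there were 4 higher (Cd24a, Sp9, Nefm and Nefl) and 1 lower (Syn2), beside 3.28% of all genes higher and 3.14% lower. The median log2 fold change of the 27 was 0.05, beside -0.02 over all genes. Without control PBS library 2 it was 0.10, and again 0 passed. At an unadjusted p under 0.05 there were then 4 higher (Cd24a, Dlx1, Nefl and Nefm) and 0 lower, beside 3.25% and 1.99% of all genes.

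Cd24a measured 197, 165 and 227 CPM with PBS and 262, 236 and 272 CPM with VIP. All 3 VIP libraries lay above all 3 PBS libraries, as did those of Nefm and Sp9, while 4.53% of all genes were separated in that direction. The group means were 196 ± 31.4 and 257 ± 18.7 CPM (SD, n = 3). The log2 fold change of 0.39 (SE 0.13) did not pass edgeR's quasi-likelihood test (adjusted p = 0.451). It passed in the fit with the replicate number as a block, at 0.40 (SE 0.08, edgeR adjusted p = 0.0329), where 1.63% of all genes passed. With GC and length offsets added to the block it was 0.17 (edgeR adjusted p = 0.378), and without control PBS library 2 it was 0.27 (0.791 in the same test without the block).

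Sp9 measured 0.987, 0.575 and 0.584 CPM with PBS and 1.53, 0.999 and 2.48 CPM with VIP. With ACREB it measured 0.982, 0.665 and 1.70 CPM with PBS and 0.842, 0.654 and 1.45 CPM with VIP. With control virus the lowest VIP library lay just above the highest PBS library, with ACREB the treatments overlapped, and the log2 fold change of 1.21 (SE 0.46) had an edgeR adjusted p of 0.619. It was 1.08 (SE 0.53) without control PBS library 2. Nefm, the medium neurofilament chain, measured 3.84, 4.20 and 3.77 CPM with PBS and 5.22, 6.70 and 4.75 CPM with VIP. With ACREB it measured 4.04, 4.78 and 2.93 CPM with PBS and 4.49, 4.53 and 3.52 CPM with VIP. The control virus groups were apart, at a log2 fold change of 0.50 (SE 0.22, edgeR adjusted p = 0.741) and 0.54 (SE 0.24) without control PBS library 2, and the ACREB groups overlapped. Nefl, whose gene overlaps Nefm on the opposite strand, measured 0.312, 1.15 and 0.425 CPM with PBS and 2.10, 1.25 and 1.11 CPM with VIP. Control PBS library 2 alone made the groups overlap. The log2 fold change was 1.25 (SE 0.55, edgeR adjusted p = 0.753) with that library and 1.99 (SE 0.59, edgeR adjusted p = 0.329) without it, from 3 to 41 counts per library over the series.

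Syn2, a synapsin, was the gene with a lower level, at 35.2, 45.1 and 40.2 CPM with PBS and 26.7, 32.3 and 35.7 CPM with VIP. With ACREB it measured 34.2, 38.9 and 40.9 CPM with PBS and 28.9, 36.5 and 38.0 CPM with VIP. Control VIP library 3 lay just above control PBS library 1, so the groups overlapped, as did those with ACREB. Its log2 fold change was -0.35 (SE 0.15, edgeR adjusted p = 0.741) and -0.26 (SE 0.15) without control PBS library 2, and it passed with GC and length offsets together with the block, at -0.32 (SE 0.07, edgeR adjusted p = 0.0302), in a fit that called 3.41% of all genes. Rbfox3 and Dcx were at log2 fold changes of -0.30 (SE 0.39) and 0.31 (SE 0.44), with edgeR adjusted p of 0.800 and 0.816. Without control PBS library 2 Rbfox3 was at -0.47 (SE 0.43), Dcx at -0.09 (SE 0.34) and Map2 moved from 0.32 (SE 0.31) to -0.01 (SE 0.21).

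The 4 genes whose promoters are printed above did not pass either. Syn1, with the full element, was at a log2 fold change of -0.09 (SE 0.16), Grin1 at 0.05 (SE 0.39), Dlx2 at 0.02 (SE 0.28) and Elavl4 at 0.40 (SE 0.33), with edgeR adjusted p of 0.782 to 0.983. Leaving out control PBS library 2 put them at 0.05 (SE 0.15), 0.14 (SE 0.44), 0.42 (SE 0.24) and 0.08 (SE 0.25) in that order. Dlx6os1, whose match is not printed, was at -0.80 (SE 1.11), and at -1.35 (SE 0.99) without control PBS library 2, from 0 to 13 counts per library.

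With ACREB, VIP was again compared with PBS. In edgeR's quasi-likelihood test 0 of the 27 genes passed in either direction, 0 reached an unadjusted p under 0.05, and DESeq2 called 0, while 0.0119% of all genes passed and 1.92% had an unadjusted p under 0.05. The median log2 fold change was -0.02, beside 0.00 over all genes. Cd24a was at 190.2, 173 and 203 CPM with PBS and at 226, 194 and 226 CPM with VIP, where the lowest VIP library lay among the PBS libraries, and its log2 fold change was 0.19 (SE 0.13). No library separation in either direction was found for any of the 27, beside 3.45% of all genes separated higher and 3.26% lower. The difference between the VIP responses with and without ACREB was tested as an interaction. It gave 0 of 27 genes and 0% of all genes past edgeR's threshold, 0 of 27 at an unadjusted p under 0.05 beside 1.2% of all genes, and 0 with DESeq2. For Sp9 the interaction was -1.39 (SE 0.66) and for Cd24a -0.20 (SE 0.18). Without control PBS library 2 they were -1.26 (SE 0.71) and -0.09 (SE 0.15), and 1 of the 27, Dlx2 at -0.72 (SE 0.32), had an unadjusted p under 0.05, beside 1.47% of all genes.

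**Figure D2:**
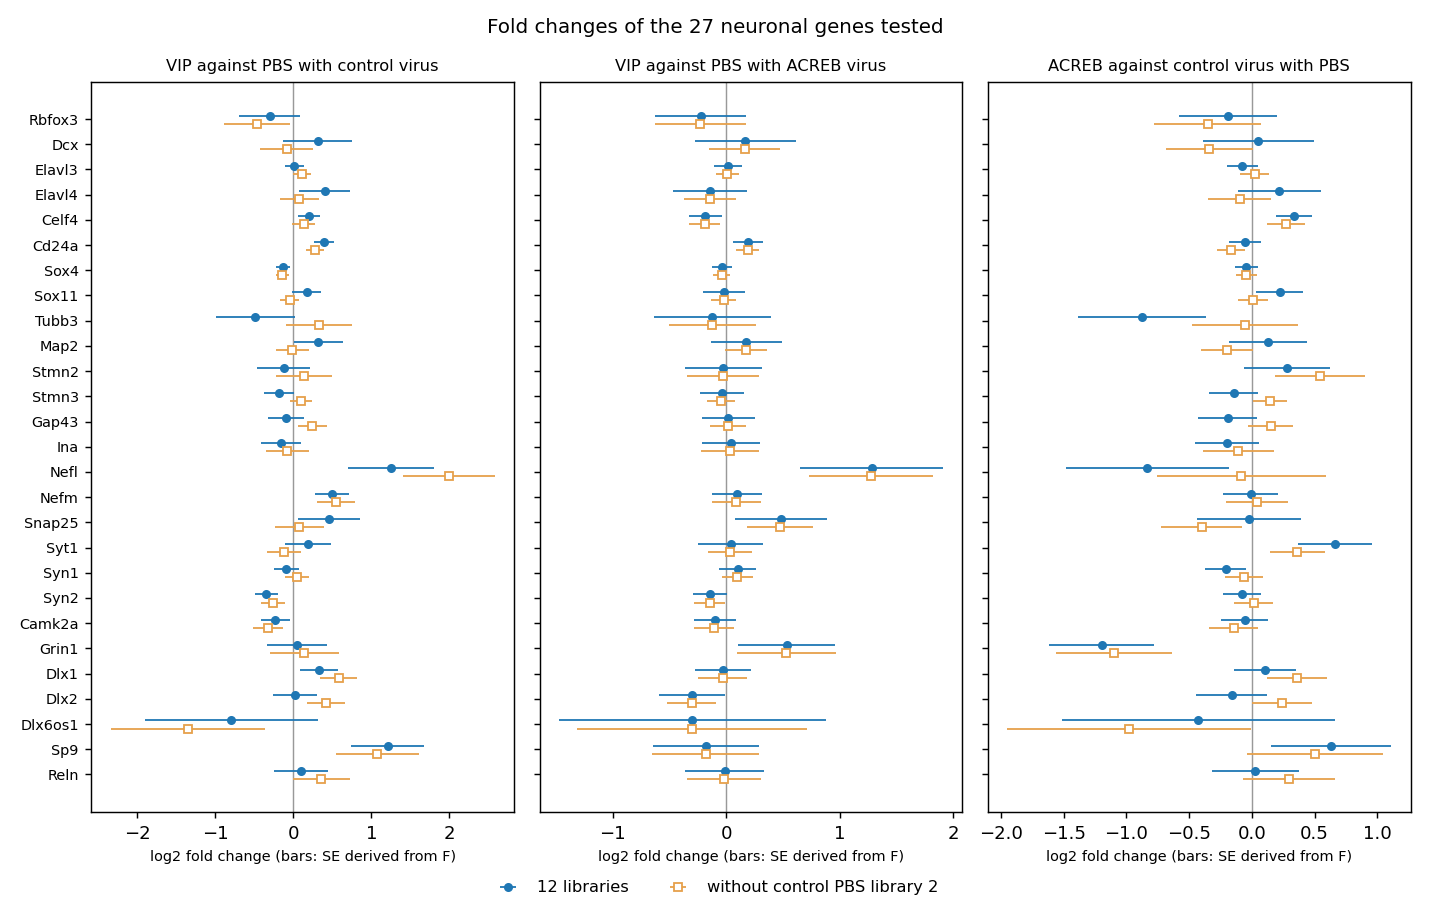
Log2 fold changes of the 27 tested genes in 3 comparisons, with all 12 libraries (filled circles) and without control PBS library 2 (open squares), and bars of 1 SE derived from edgeR's F statistic. Nefl and Sp9 lie farthest right in the first panel and Grin1 farthest left in the third, and Tubb3 and Nefl shift by the most when that library is left out, in the 2 panels that use it.

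ACREB was next compared with the control virus in PBS. In edgeR's quasi-likelihood test 0 of the 27 genes passed, beside 0.0358% of all genes. DESeq2 called 0 of the 27, beside 32 higher and 62 lower among 30838 genes. At an unadjusted p under 0.05 there were 2 higher (Celf4 and Syt1) and 1 lower (Grin1), beside 2.58% of all genes higher and 2.72% lower. With control PBS library 2 left out there were 0 higher and 1 lower (Grin1), beside 2.87% and 2.34% of all genes. This comparison shares its PBS libraries with the test of VIP, so the values of the 2 are not independent.

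Grin1 measured 2.49, 3.10 and 2.65 CPM with control virus and 0.873, 0.726 and 1.99 CPM with ACREB. All ACREB libraries lay below all control libraries (4.44% of all genes were separated that way), with 12 to 62 counts per library over the series. The means were 2.75 ± 0.317 and 1.20 ± 0.692 CPM (SD, n = 3), a log2 fold change of -1.20 (SE 0.42) with an edgeR adjusted p of 0.683, and -1.10 (SE 0.47) without control PBS library 2. With VIP it measured 2.30, 2.95 and 3.27 CPM with control virus and 0.955, 1.47 and 2.74 CPM with ACREB. There the third ACREB library lay among the controls, and the log2 fold change was -0.71 (SE 0.40). The gene on the strand opposite Grin1 is its antisense gene Grin1os.

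Celf4 measured 8.62, 6.84 and 7.16 CPM with control virus and 8.78, 9.56 and 10.2 CPM with ACREB in PBS. The lowest ACREB library lay just above the highest control library, as in 4.34% of all genes, and the log2 fold change was 0.34 (SE 0.15, edgeR adjusted p = 0.898) and 0.27 (SE 0.15) without control PBS library 2. Syt1 measured 5.30, 2.18 and 5.09 CPM with control virus and 7.31, 4.96 and 7.73 CPM with ACREB. The second ACREB library lay below 2 of the control libraries, and the log2 fold change of 0.66 (SE 0.29, edgeR adjusted p = 0.917) was 0.36 without control PBS library 2.

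Tubb3 had the largest shift when that library was left out. It measured 25.2, 77.6 and 21.9 CPM with control virus and 15.5, 35.7 and 16.8 CPM with ACREB in PBS. The second library was the highest of each group by a wide margin, and the groups overlapped. The log2 fold change was -0.88 (SE 0.51, edgeR adjusted p = 0.956) and was -0.05 (SE 0.43) without control PBS library 2, a fit that keeps the high second ACREB library and drops its same-numbered control. With the block and all libraries it was -0.77 (SE 0.16, edgeR adjusted p = 0.0891). Tubb3 passed once the block was joined by GC and length offsets, at -0.71 (SE 0.10, edgeR adjusted p = 0.00656), in a fit that called 1.83% of all genes.

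Within same-numbered libraries, PBS and VIP together, ACREB was lower than control virus in 6 of 6 pairs for Tubb3, Gap43 and Grin1, as in 7.76% of all genes. It was higher in 6 of 6 for Stmn2 and Syt1, as in 8.44% of all genes. Stmn2, with 72.9, 88.4 and 37.5 CPM in control PBS and 82.1, 106 and 53.8 CPM in ACREB PBS, had log2 fold changes of 0.28 (SE 0.34) with PBS and 0.38 (SE 0.34) with VIP, and the first was 0.55 (SE 0.36) without control PBS library 2. With the block they were 0.31 (SE 0.10) and 0.40 (SE 0.10), and neither passed (edgeR adjusted p of 0.310 and 0.146).

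Of the other genes with a printed promoter, Syn1 was at -0.21 (SE 0.16) with ACREB in PBS, Dlx2 at -0.16 (SE 0.29) and Elavl4 at 0.22 (SE 0.33). Without control PBS library 2 they were at -0.06 (SE 0.15), 0.24 (SE 0.24) and -0.10 (SE 0.25), with the opposite sign for Dlx2 and Elavl4. In VIP they were at -0.01 (SE 0.16), -0.48 (SE 0.29) and -0.32 (SE 0.32). Dlx6os1, not printed, was at -0.43 (SE 1.09) with PBS, at -0.98 (SE 0.97) without control PBS library 2, and at 0.07 (SE 1.20) in VIP. Elavl4 averaged 4.08 ± 1.80 CPM in control PBS, 5.41 ± 0.495 in control VIP, 4.76 ± 1.25 in ACREB PBS and 4.32 ± 0.954 in ACREB VIP (SD, n = 3), and the groups overlapped.

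With VIP, ACREB against control virus gave 0 of 27 genes past edgeR's threshold beside 0.0537% of all genes, and 0 at an unadjusted p under 0.05 beside 5.69%. DESeq2 called 0 of the 27, beside 41 higher and 81 lower among 30838 genes. The unadjusted count of 0 in edgeR was not kept in several other fits. It changed with the block, with GC and length offsets, with only the groups compared and without control PBS library 2, and 0 passed in each. With the block, 2 were higher and 6 lower at an unadjusted p under 0.05 in edgeR, and 0 passed. Past the adjusted threshold the block called 25 of all genes higher and 36 lower, beside 3 and 6 without it. The share of all genes at the unadjusted threshold is not given for the block, so the 2 and 6 are not read as a difference of the neuronal genes. Syt1 was separated higher with ACREB (6.97% of all genes were), at 4.25, 4.60 and 5.49 CPM with control virus and 6.34, 6.33 and 7.86 CPM with ACREB, a log2 fold change of 0.52 (SE 0.29). Cd24a and Nefm were separated lower (7.06% of all genes were), at -0.25 (SE 0.13) and -0.41 (SE 0.22). Tubb3 measured 21.8, 44.5 and 22.4 CPM with control virus and 14.9, 31.1 and 16.4 CPM with ACREB, at -0.51 (SE 0.51), and among the alternatives run it passed only with the block plus offsets for GC and length, at -0.59 (SE 0.10, edgeR adjusted p = 0.0112), where 3.5% of all genes passed.

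The other genes of the same pathways came from 5 lists with 81 genes, of which 66 were tested. With control virus VIP raised 2 of the 66, Gad1 and Syt4, and 0 fell, beside 0.424% of all genes higher and 0.0656% lower, with a median log2 fold change of -0.09 over the 66. In the other 4 tests 0 of the 66 passed with edgeR's quasi-likelihood test. Among GABAergic genes 1 of 8 tested rose, Gad1, which makes GABA from glutamate, and among synaptic genes 1 of 17 tested rose, Syt4, a synaptotagmin of dense-core vesicles. None of 16 pan-neuronal, 10 glutamatergic and 15 progenitor genes tested passed in this contrast, where 0, 0 and 0 were higher and 1, 0 and 3 lower at an unadjusted p under 0.05, beside 3.28% and 3.14% of all genes.

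Gad1 (ENSMUSG00000070880, chromosome 2, 70553072 to 70602014) measured 3.43, 3.97 and 2.65 CPM in control PBS and 13.1, 9.99 and 8.61 CPM in control VIP. All VIP libraries lay above all PBS libraries, a 3.15-fold rise with a log2 fold change of 1.66 (SE 0.25, edgeR adjusted p = 0.0135), and 1.79 (SE 0.28, adjusted p = 0.0190) without control PBS library 2. With ACREB it measured 3.33, 5.08 and 5.27 CPM with PBS and 7.36, 5.34 and 4.97 CPM with VIP, which overlapped, at a log2 fold change of 0.37 (SE 0.25). The interaction of -1.29 (SE 0.35), and -1.43 (SE 0.37) without control PBS library 2, did not pass edgeR's test, with no call among all genes. The call in control virus was lost without control PBS library 1 (edgeR adjusted p = 0.0617) or 3 (0.0555) and without control VIP library 1 (0.0717), and in a fit of only the 6 libraries compared (0.129), with log2 fold changes from 1.47 to 1.69. Beside it, Gad2, the second GABA-synthesising enzyme, stayed between 0 and 0.743 CPM and Slc32a1 between 0 and 0.370 CPM.

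Syt4 measured 6.49, 3.33 and 3.82 CPM in control PBS and 19.5, 20.2 and 14.2 CPM in control VIP. The rise was 3.94-fold, a log2 fold change of 1.98 (SE 0.26, edgeR adjusted p = 0.00540), and 1.80 (SE 0.26, edgeR adjusted p = 0.0139) without control PBS library 2. With ACREB it measured 4.53, 3.57 and 3.04 CPM with PBS and 11.2, 8.73 and 8.74 CPM with VIP. Those groups did not overlap either, and the log2 fold change of 1.36 (SE 0.26) had an edgeR adjusted p of 0.270 without the block and 0.0275 with it (log2 1.37, SE 0.18). Syt4 overlaps Gm26658 on the opposite strand, so its counts are uncertain.

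The most abundant gene per kb is given as a level only for the pan-neuronal, synaptic, glutamatergic and progenitor lists. These were the ubiquitin hydrolase Uchl1 at 217 to 331 CPM, the vesicle SNARE Vamp2 at 101 to 153, the AMPA receptor subunit Gria1 at 50.2 to 172 and the tubulin Tubb2b at 1044 to 1766. Several of these genes are also known in glia or progenitors, and which cells carried the RNA was not tested.

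The libraries were last compared by their replicate number. Each number occurs once in each of the 4 groups, so the numbers and the groups are balanced, and what the number marks is not given in the sources used here. This comparison, and the genes shown for it, were chosen after the values were seen. In a model with terms for group and number, 10 of the 27 neuronal genes differed between numbers (37.0%), beside 15.5% of all genes tested, at an adjusted p under 0.05 in edgeR. They were Reln, Tubb3, Stmn2, Camk2a, Gap43, Dcx, Syn2, Cd24a, Dlx1 and Dlx2. The range of the 3 number means was larger than the range of the 4 group means in 17 of 27 neuronal genes (63.0%) and in 53.9% of all genes.

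**Figure D3:**
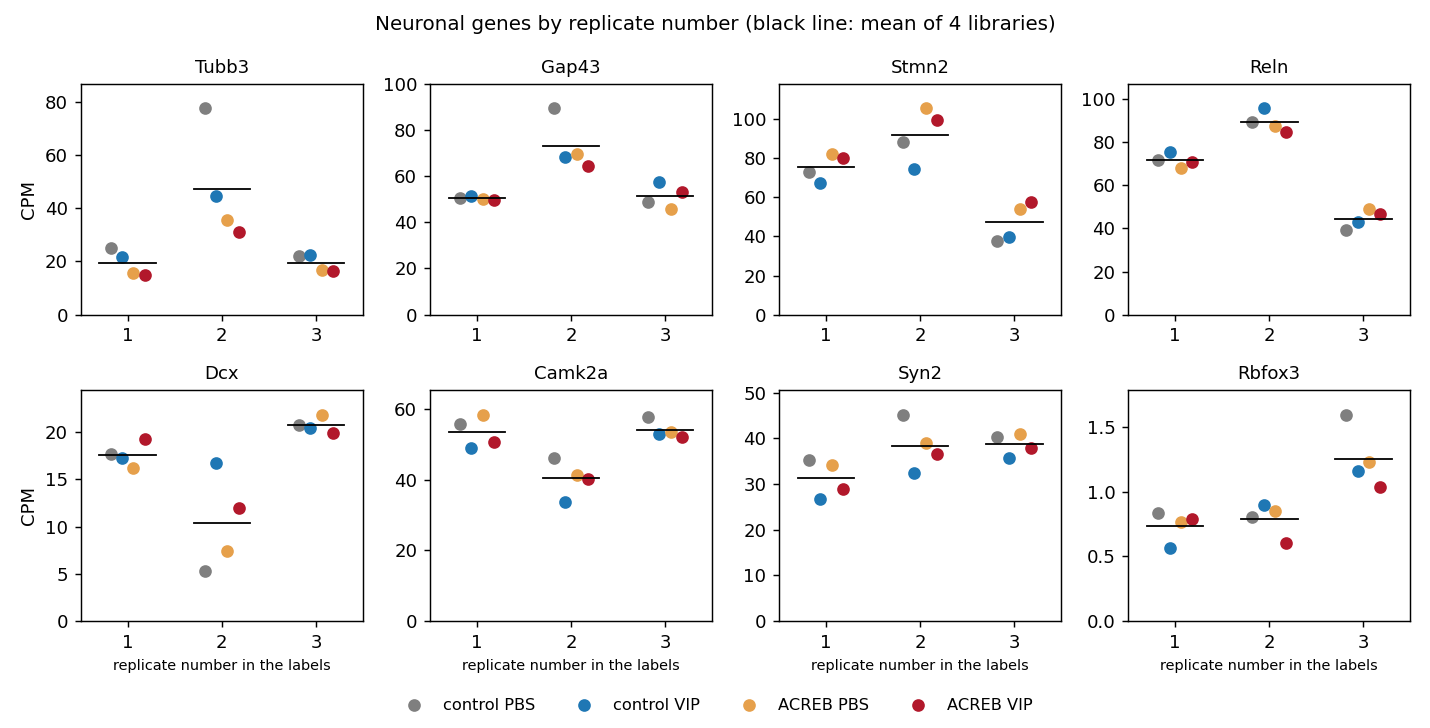
CPM of 8 neuronal genes by replicate number (horizontal axis), 1 point per library coloured by group, with a line at the mean of the 4 libraries. The second libraries are highest for Tubb3, Gap43 and Reln and lowest for Camk2a, and the third libraries are lowest for Stmn2 and Reln and highest for Dcx and Rbfox3, in every group.

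The genes that differed had several patterns. Reln (edgeR adjusted p = 0.00029) averaged 71.6 ± 3.07 CPM in the libraries numbered 1, 89.4 ± 4.67 in those numbered 2 and 44.5 ± 4.28 in those numbered 3 (SD, n = 4). The second libraries were 2.01-fold above the third, and the 3 numbers did not overlap. Stmn2, a stathmin of growing axons, measured 72.9, 88.4 and 37.5 CPM in control PBS, 67.5, 74.8 and 40.0 in control VIP, 82.1, 106 and 53.8 in ACREB PBS and 80.0, 99.8 and 57.5 in ACREB VIP. It had the order of Reln in every group, and the libraries numbered 3 lay below all others (edgeR adjusted p = 0.000456).

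Tubb3 averaged 19.4 ± 5.01, 47.2 ± 21.01 and 19.4 ± 3.20 CPM by number (edgeR adjusted p = 0.000416), 2.44-fold higher in the second libraries. Those 4 lay at 31.1 to 77.6 CPM and all others at 25.2 CPM or below, so the separation did not rest on control PBS library 2 alone. Gap43 was likewise highest in all 4 second libraries, at 72.9 ± 11.2 CPM against 50.5 ± 0.698 and 51.3 ± 5.21 (edgeR adjusted p = 0.0107). Dlx1, Gap43, Reln and Tubb3 were the 4 of 27 genes with all second libraries above the other 8, a pattern held by 4.16% of all genes.

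Camk2a had all second libraries below the other 8, as in 2.60% of all genes, at 40.4 ± 5.08 CPM against 53.5 ± 4.30 and 54.1 ± 2.49 (edgeR adjusted p = 0.00990). Dcx averaged 17.6 ± 1.27, 10.4 ± 5.07 and 20.7 ± 0.830 CPM (edgeR adjusted p = 0.0282). Dcx and Rbfox3 were the genes with all libraries numbered 3 above the other 8, as in 2.34% of all genes, though Rbfox3 did not pass (edgeR adjusted p = 0.0841). Reln and Stmn2 had all libraries numbered 3 below the other 8, as in 1.71% of all genes. So the third libraries held the highest levels of both neuronal markers, Rbfox3 and Dcx, and the lowest of Reln and Stmn2.

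Syn2 was lowest in the first library of every group, at 31.2 ± 4.10 CPM against 38.2 ± 5.35 and 38.7 ± 2.33 (edgeR adjusted p = 0.0365). Cd24a was lowest in the second library and highest in the third of every group, and Dlx2 averaged 9.70 ± 2.04 CPM in the second libraries against 6.85 ± 1.94 and 6.42 ± 0.729. Both passed narrowly, with edgeR adjusted p of 0.0431 and 0.0488, and Dlx1 had 0.0481. Dlx6os1 had 0, 4, 0 and 0 counts in the 4 second libraries and 2 to 13 in the other 8, and did not pass (edgeR adjusted p = 0.0848).

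With GC and length offsets 11 of the 27 differed between numbers, beside 28.4% of all genes. Leaving out 1 library at a time gave 3 to 14 of them. In control PBS the count was 6 without library 1 (7.77% of all genes), 9 without library 2 (17.9%) and 8 without library 3 (12.3%), and in control VIP it was 8 (8.49%), 14 (31.8%) and 7 (11.9%) without libraries 1, 2 and 3. In ACREB PBS it was 5 (8.03%), 3 (5.85%) and 5 (8.32%), and in ACREB VIP 5 (6.89%), 5 (9.51%) and 6 (9.58%). The lowest count of neuronal genes stood beside the lowest share of all genes, and the highest beside the highest. Reln, Tubb3 and Stmn2 passed in each of these fits. Summed markers of other cells also varied by number. Microglial markers reached 1117 to 1566 CPM in the first libraries, 1158 to 2298 in the second and 2228 to 2920 in the third. The endothelial sum was 26.9 to 36.5, 21.7 to 31.1 and 46.6 to 57.7 CPM, and that of the 17 progenitor genes 3775 to 4308, 4420 to 5362 and 3893 to 4270. Fibroblast and mural markers summed to 1889 to 2084, 2168 to 3033 and 2163 to 2237 CPM. Astrocyte markers summed to 7765 to 8128, 7493 to 8163 and 6938 to 7367 CPM, lowest in the libraries numbered 3. Their part in the differences between numbers was not tested.

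Control PBS library 2 was the lowest of the 12 libraries for 10 of the 27 neuronal genes and the highest for 6, as it was for 29.8% and 31.6% of all genes. Against the mean of the other control PBS libraries, Dcx was lower there by a log2 difference of -1.82, Snap25 by -1.59, Map2 by -1.38, Elavl4 by -1.30 and Syt1 by -1.21. Tubb3 was higher by 1.72, Nefl by 1.41 and Dlx2 by 0.96.

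The direction differed with base composition. Of the 12 tested genes with a GC content under 50% in their longest transcript, 9 were lower in that library, with a median of -1.0, beside 70.6% of all genes of that class with a median of -0.46. Of the 15 with more GC, 11 were higher and 4 lower, with a median of 0.27. Over all genes of that class 19.3% were lower, with a median of 0.33. After the trend with GC content and length over all genes was removed the medians were -0.36 and 0.08. Dcx was then at -0.67 and Tubb3 at 1.33, and Stmn2, which is poor in GC, was at 1.57 where it had been at 0.76.

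**Figure D4:**
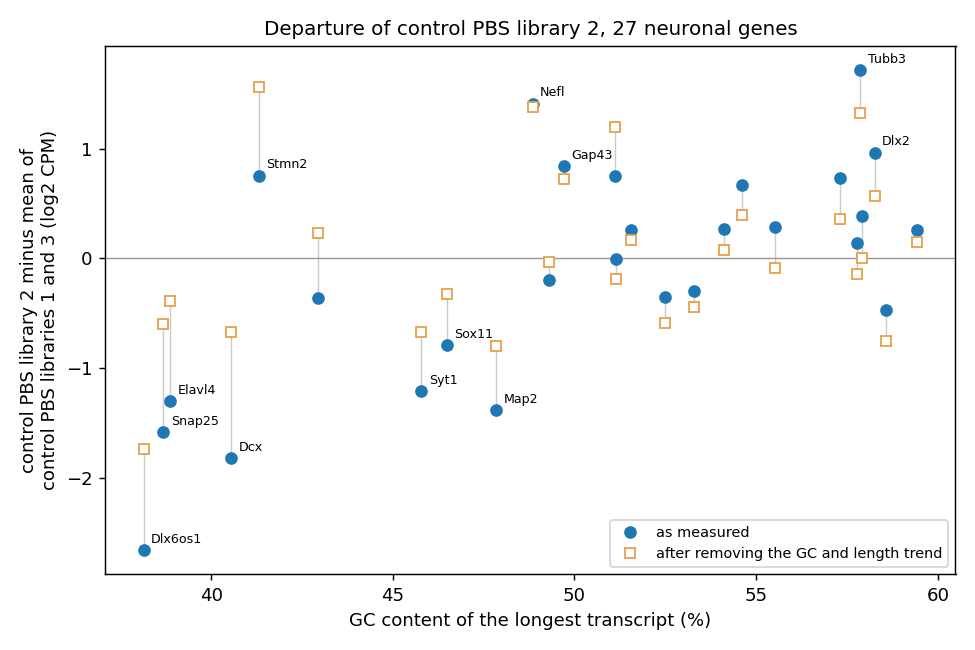
Departure of control PBS library 2 from the mean of control PBS libraries 1 and 3 (log2 CPM) for the 27 tested genes against the GC content of their longest transcript, as measured (filled circles) and after removal of the trend with GC content and length over all genes (open squares). Dcx, Snap25, Map2 and Dlx6os1 lie below 0 at low GC and stay there, and Tubb3 and Dlx2 lie above 0 at high GC.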

How the data were processed

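The 36 genes, their 5 roles and the other lists were chosen with earlier results of these data known. The authors deposited 1 table of raw counts, with Ensembl genes as lines and libraries as columns, not normalized and not pooled. HTSeq 0.11.2, STAR 2.7.1a and Trimmomatic 0.39 are named in the submitters' processing notes, as are edgeR, R 3.6.1 and the build GRCm38 (mm10). What each did, the annotation and the strand setting were not stated in the sources used here.

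The tests used edgeR 4.0.16, which loads limma 3.58.1, and as an alternative DESeq2 1.42.0, in R 4.3.3. After filterByExpr 16761 of 55573 genes were left. TMM factors set the library sizes, and edgeR's quasi-likelihood model held 4 group means over the 12 libraries, leaving 8 residual degrees of freedom (prior 3.99, common dispersion 0.0381). P-values were adjusted by Benjamini-Hochberg over the 16761 genes, and 0.05 was the threshold. Each SE of a log2 fold change was back-calculated from its size and the F statistic (size over root F) and is not a fitted SE. CPM is per TMM-adjusted library, and CPM per kb divides by exon length in GENCODE (GRCm38). Positions are GENCODE's. A second identifier of Dlx6os1 had 0 counts. The script was tested on simulated data with the same dispersion for every gene and no trend with GC content. These libraries differ from that, so the test does not cover them in this respect.

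In all 18 same-numbered pairs the departures from the group means were correlated across genes (0.132 to 0.679), and for 12 of 12 libraries the best match had its own number. By these values the numbers, which come from the labels, pair the samples. The main tests ignore that pairing, with no term for the number, because what it marks is not given. Their counts of 0 neuronal genes called therefore come from unpaired fits. Fits that block on the number (6 residual degrees of freedom) stand as alternatives. The test of the number itself uses that model, was added after seeing the data, and treats the 12 libraries as 4 per number. None of the 12 pairs of libraries within a group agreed within sampling noise (lowest chi-square per degree of freedom 13.2).

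Values in every library were given by rule for Rbfox3 and Dcx, for genes called in any contrast, for the 3 smallest unadjusted p in VIP against PBS with control virus, for the 3 genes most abundant per length in each role, and for called genes of the other lists, with Gad1 always included. The further genes shown library by library (Nefl in part, Grin1, Celf4, Syt1, Tubb3, Stmn2) were chosen after their values were seen. Alternatives were DESeq2, RLE scaling, no filter on low counts, only the groups compared, GC and length offsets (a spline of 5 degrees of freedom per library), the block, and leaving out each library. Promoter windows come from RefSeq. The level of 1 gene is not reported here.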

Additional observations from a re-analysis of the deposited data

How the results depend on the processing

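The counts of 0 neuronal genes called held under RLE scaling, DESeq2, no filter on low counts, the groups compared alone, GC and length offsets, and each library left out, in all 5 tests of virus and VIP, except that the groups compared alone give no interaction. With the replicate block 1 gene was called higher by VIP in control virus (Cd24a). With GC and length offsets and the replicate block 1 was called lower by VIP in control virus (Syn2), and 1 lower by ACREB with PBS and 1 lower by ACREB with VIP (Tubb3 in both). The cause was not tested, and the block changed no other call of the 36 genes. It also called Syt4 for VIP with ACREB and for ACREB with VIP (edgeR adjusted p = 0.0275 and 0.0492), and DESeq2 and the fit with no filter called the former (0.00184 and 0.0345). The fit of only the 6 libraries compared lost Syt4 for VIP in control virus (0.143). The number of genes called over the whole table moved more: for VIP in control virus 71 rose and 11 fell, 184 and 90 with the block, 178 and 67 with DESeq2, 115 and 16 with no filter, 130 and 20 with offsets and 357 and 214 with the block and offsets, but 2 and 0 with the groups compared alone, and 25 to 80 and 0 to 11 with 1 library left out (29 and 1 on dropping control PBS library 1, and 25 and 0, 42 and 1, and 45 and 6 on dropping control VIP libraries 1, 2 and 3). The neuronal genes that differed between replicate numbers, 10 in all, ranged from 3 to 14 with 1 library left out. At an unadjusted p under 0.05 in edgeR, the block gave 5 neuronal genes higher and 3 lower for VIP with control virus. It gave 1 and 0 for VIP with ACREB, 3 and 2 for ACREB with PBS, and 0 and 1 for the interaction. The shares of all genes at that threshold are not given for the block, so these counts are not read as differences of the neuronal genes. Past the adjusted threshold the block called 13 of all genes higher and 0 lower for VIP with ACREB. It called 14 and 23 for ACREB with PBS, and 0 and 0 for the interaction. The log2 ratio of the summed level, ACREB over control virus with VIP, was -0.03, and -0.11 as a mean of log2(CPM + 0.5), where rare genes weigh as much as Sox4. Depth limits the genes with under 10 counts per library, whose differences were not detectable.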
